A study of Caenorhabditis elegans with 2 samples.

Results

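The cytosolic ribosomal protein genes of Caenorhabditis elegans were examined in a chromatin immunoprecipitation sequencing (ChIP-seq) map of UNC-39, a DNA-binding homeodomain protein of the sine oculis family. The genes were all protein-coding genes of the Ensembl annotation whose name begins with rpl- or rps-, which gave 78 of 19973 genes, 47 for the large subunit and 31 for the small subunit. There was 1 group of samples, with 2 replicates labelled as biological. The strain, OP186, carries the unc-119(ed3) III allele and the insertion wgIs186, which puts an eGFP-tagged unc-39 transgene into the worm, and the material was whole embryos of mixed stage, male and female pooled. The labels name eGFP-unc-39 as the target and list unc-39 under antibody, so which antibody was used is not settled, and the signal comes from all cells of the embryo together. How the transgene is driven and in how many copies is not stated in the labels. There was no second strain or condition, and the control library is not analysed here.

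Each cytosolic ribosome holds 1 copy of nearly every ribosomal protein beside its ribosomal RNAs, and their genes are among the most strongly transcribed in growing cells. Worm ribosomal protein genes are short, several lie in operons or back to back with another gene, and several hold small nucleolar RNA (snoRNA) genes in their introns. Many worm messages are trans-spliced to a leader RNA, so an annotated start can be the splice site of the leader and not the promoter itself. UNC-39 is known for roles in mesoderm and in neurons.

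A gene was counted when the summit of a peak lay within 1000 bp of one of its annotated starts. Of the 78 genes, 6 had a summit in the authors' called list, which had passed their irreproducible discovery rate (IDR) threshold. In 5 of these the gene's own start was the nearest protein-coding start: rpl-3, rps-28, rpl-12, rpl-35 and rpl-15. Their sequences are shown because they are the called regions that belong to ribosomal protein genes. Each is the 60 bp on both sides of the pooled summit, 5′ to 3′ on the gene's strand (ce11). For rpl-12, only the 26 bases before the annotated start are shown. Capitals mark short sequences that recur upstream of ribosomal protein genes and are counted further on. They were CGAGTGT, TACGGTAA and GGCCTAAA in these windows. The windows were chrIII:3867501-3867621 (plus strand), chrIV:1659210-1659330 (plus), chrIV:13240652-13240677 (minus), chrIII:7854622-7854742 (plus) and chrIV:654865-654985 (minus).
rpl-3: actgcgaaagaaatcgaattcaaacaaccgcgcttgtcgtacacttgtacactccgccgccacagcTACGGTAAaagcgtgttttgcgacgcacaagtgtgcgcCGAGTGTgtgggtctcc
rps-28: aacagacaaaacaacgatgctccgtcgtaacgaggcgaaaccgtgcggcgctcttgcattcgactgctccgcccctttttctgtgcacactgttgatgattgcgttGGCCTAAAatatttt
rpl-12: ctgcgtagcgacgcaacaaccattgt
rpl-35: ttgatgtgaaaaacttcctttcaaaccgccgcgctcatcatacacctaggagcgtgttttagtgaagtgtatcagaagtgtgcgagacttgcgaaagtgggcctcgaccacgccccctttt
rpl-15: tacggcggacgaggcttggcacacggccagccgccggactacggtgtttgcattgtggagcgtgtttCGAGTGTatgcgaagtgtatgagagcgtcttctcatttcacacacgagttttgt

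The strongest region of a ribosomal protein gene was that of rpl-3, whose product uL3 lies near the peptidyl transferase centre and whose worm transcript is known for regulated unproductive splicing. Its summit lay 293 bp upstream of the start, in intergenic sequence (region chrIII:3867373-3867748). The pooled signal, the authors' score for a peak, was 113, rank 6 of 9046 pooled regions and also rank 6 in the called list. In replicate 1 the signal was 58.2 (rank 14 of 15880) with the summit at 286 bp upstream, and in replicate 2 it was 53.2 (rank 5 of 30000) at 292 bp upstream. The summit positions of the replicates thus differed by 6 bp. A smaller summit lay inside the gene, 531 bp after the start in the pooled list and 530 bp after it in replicate 2, with pooled signal 22.9.

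Next came rps-28, which encodes a small-subunit protein near the exit of the messenger RNA channel. Its region (chrIV:1659082-1659457) had its summit 421 bp upstream of the start, in intergenic sequence, with a pooled signal of 80.7 (rank 37). It ranked 137 in replicate 1 (signal 32.0) and 12 in replicate 2 (signal 47.7). No other annotated protein-coding gene lay closer than Y41D4B.4 downstream and nhr-274 upstream, the latter 14393 bp away. The region was thus strong in both libraries but higher in the order of replicate 2.

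rpl-12 encodes the protein at the base of the stalk where elongation factors dock, and its worm message is also known for unproductive splicing. Its region (chrIV:13240429-13240804) differed from the others in position, since the summit lay 34 bp after the first annotated start, in the 5′ untranslated region (UTR). The pooled signal was 68.7 (rank 69), with 39.1 (rank 72) in replicate 1 and 27.8 (rank 115) in replicate 2. The replicate summits lay 23 bp and 62 bp after that start. The first annotated start codon lies 91 bp after that start, and lin-54, a component of the DREAM complex, is transcribed the other way from 393 bp upstream.

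rpl-35, which encodes a protein beside the exit tunnel of the large subunit, had its summit 452 bp upstream (region chrIII:7854494-7854869, intergenic). Its pooled signal was 67.1 (rank 77), with 40.9 (rank 58) in replicate 1 and 25.5 (rank 162) in replicate 2. rpl-15, another large-subunit gene, had its summit 349 bp upstream (region chrIV:654737-655112, intergenic), with a pooled signal of 60.2 (rank 102), 38.2 (rank 77) in replicate 1 and 24.98 (rank 177) in replicate 2. rpl-15 holds 2 snoRNA genes, K11H12.12 and K11H12.13, and a weaker pooled summit 1 bp from K11H12.13 had signal 22.8 and rank 3835. The called summit lay upstream, more than 200 bp from both snoRNA genes.

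**Figure D1:**
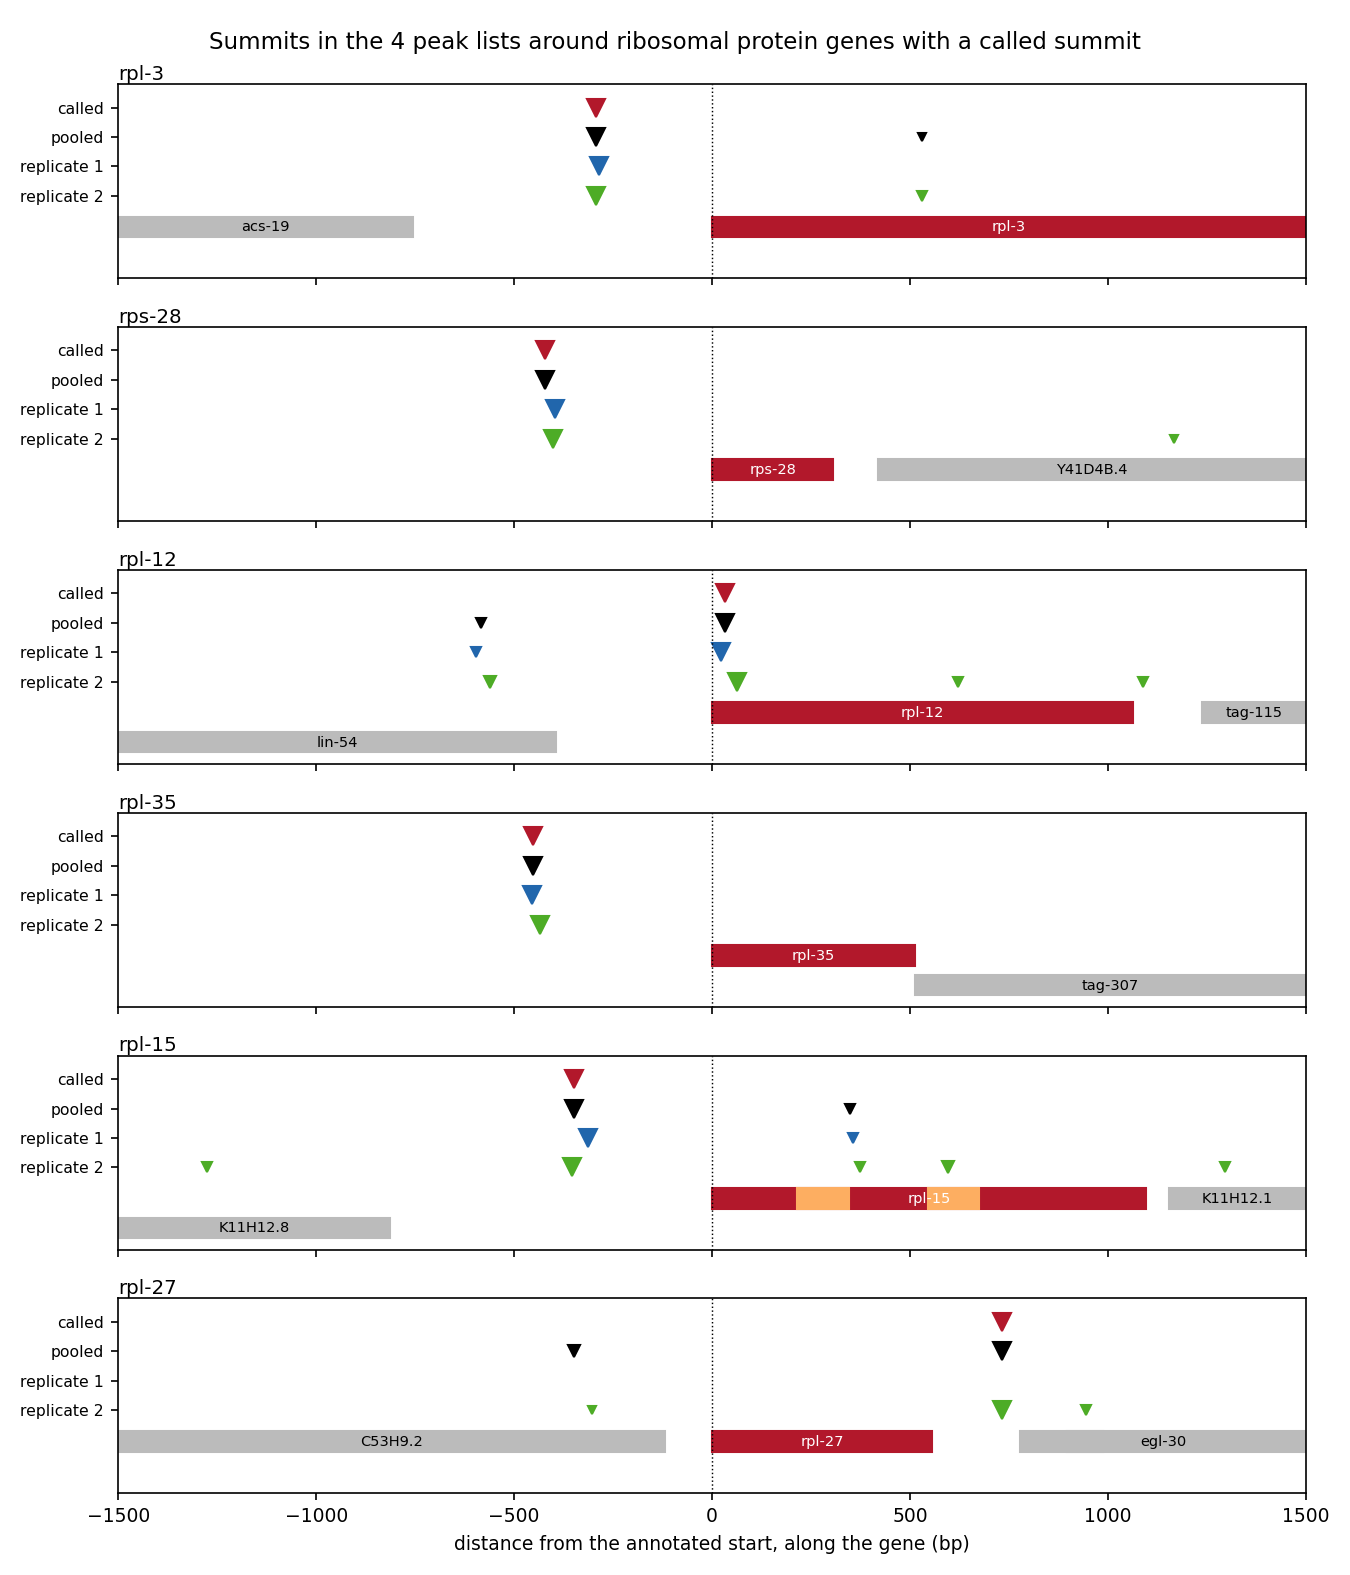
Summits in the called, pooled, replicate 1 and replicate 2 lists (triangles, sized by signal relative to the strongest in the same list within the panel) around the 6 ribosomal protein genes with a called summit. The x axis is the distance in bp from the first annotated start along the gene, red bars are the ribosomal protein genes, grey bars other protein-coding genes (lower row for the opposite strand) and orange bars snoRNA genes. In rpl-3, rps-28, rpl-35 and rpl-15 the strongest summits of all 4 lists lie upstream, in rpl-12 they lie within 62 bp after the start, and in rpl-27 they lie at egl-30 with none in replicate 1.

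The sixth gene was rpl-27, also of the large subunit, and its summit was nearer to a neighbour. It lay 733 bp after the rpl-27 start, past the end of the gene, and 45 bp before the start of egl-30, which encodes the alpha subunit of the Gq protein (region chrI:1835428-1835803). The pooled signal was 46.8 (rank 230). In replicate 2 it was 41.9 (rank 30), while replicate 1 had no region there. This was the 1 called region that overlapped no region of replicate 1, and 1 called region overlapped none of replicate 2. The window at this summit had the highest GC content of all called windows, 64.2% over 100 bp on each side. No called summit of a ribosomal protein gene lay within 200 bp of a snoRNA, tRNA or small nuclear RNA gene.

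Below the IDR threshold the next regions by pooled signal lay close to it. The weakest called region had a signal of 44.4. rpl-20, a large-subunit gene, had a pooled signal of 43.0 (rank 295), with rank 251 in replicate 1 and rank 387 in replicate 2. Its summit was 299 bp upstream, and the start of the divergent gene Y17G9B.5 was nearer, at 163 bp. rps-12, a small-subunit gene, had 41.1 (rank 353, with ranks 712 and 273 in replicates 1 and 2), 243 bp upstream and 50 bp from the start of ska-3, a spindle and kinetochore gene. rpl-28 had 40.5 (rank 366, with ranks 519 and 966) with the summit in its own coding sequence, 150 bp after the start. These 3 genes and the 5 with their own called region were the 8 that had a summit among the 1000 strongest of both replicates.

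Of the next regions by pooled signal, some ranked far apart in the libraries and others did not. rps-23 (small subunit, at the decoding centre) had pooled rank 726 and ranks 1091 and 1496 in replicates 1 and 2, and rpl-22 had pooled rank 654 and ranks 624 and 2460. The pooled summit of rpl-22 was 233 bp upstream, and the start of the divergent gene ify-1 was nearer, at 204 bp. The replicate summits at rpl-22 lay 117 bp apart. rps-18 (small subunit) had a pooled signal of 38.8 (rank 431), with rank 192 in replicate 2 and rank 14219 in replicate 1. That summit was 690 bp upstream and lay in the 5′ UTR of sec-61.A, the translocon channel gene. rpl-29 (rank 780) was similar, at rank 314 in replicate 2 and 10521 in replicate 1. rps-22 went the other way, at rank 222 in replicate 1, while the replicate 2 region at the same place ranked 18979, and the start of polh-1, a DNA polymerase gene, was nearer. rps-1 (rank 543) also stood higher in replicate 1 (rank 572) than in replicate 2 (rank 5617), with its summit 241 bp upstream in an exon of the noncoding RNA gene F56F3.10.

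**Figure D2:**
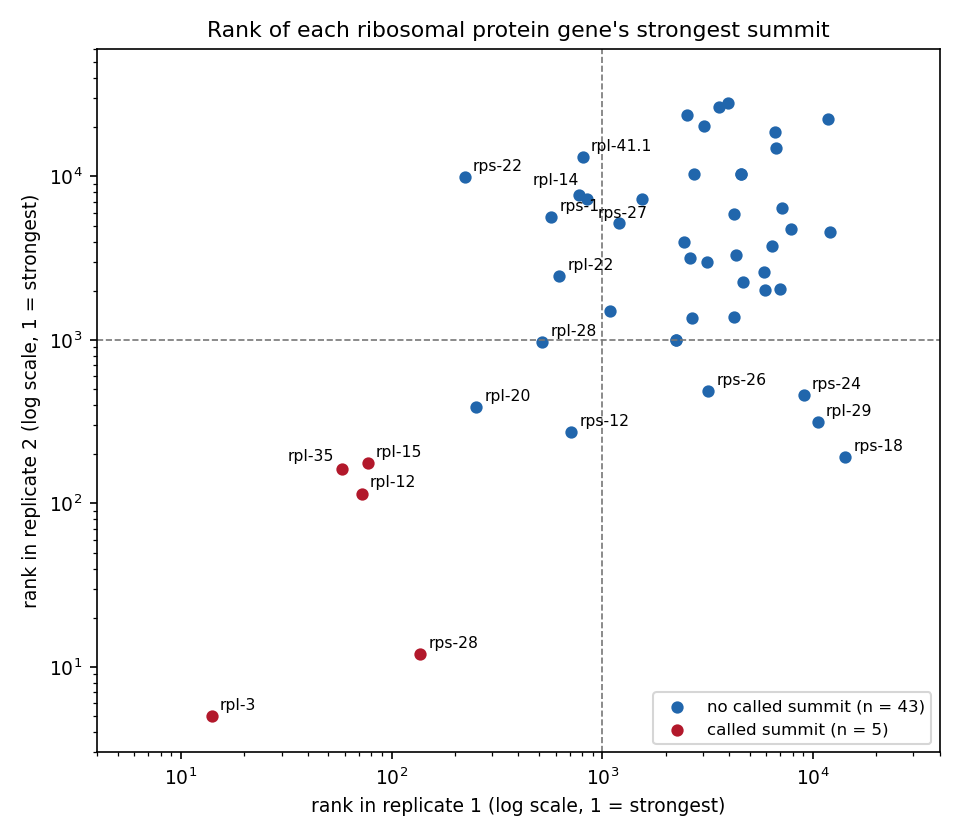
Rank of each ribosomal protein gene's strongest summit within 1000 bp of a start in replicate 1 (x axis) and replicate 2 (y axis), both log scales with 1 as the strongest, for the 48 genes with a summit in both lists. Dashed lines mark rank 1000, and the 5 genes with a called summit at their own start lie at ranks 14 to 137 and 5 to 177. The summits of a gene can lie at different places in the 2 libraries.

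The 78 genes were then set beside all 19973 protein-coding genes, list by list. A called summit was found at 6 of 78 (7.69%, 95% exact interval 2.88 to 16.0), against 0.941% of all genes. With the gene's own start nearest, the count was 5 (6.41%, interval 2.11 to 14.3), against 0.721%. A summit among the 1000 strongest pooled regions was found at 17 genes (21.8%, interval 13.2 to 32.6), against 3.2%. The 8 genes with a summit among the 1000 strongest of both replicates made 10.3% (interval 4.53 to 19.2), against 1.14%. These shares were several times those over all genes, and the intervals cover counting error only, since some genes share a summit. No test was made, because the genes were chosen with results of these data known.

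In the relaxed lists, which were made to include background, most ribosomal protein genes had a summit. The pooled list gave 49 of 78 (62.8%, interval 51.1 to 73.5), against 21.5% of all genes. Replicate 1 gave 52 (66.7%, interval 55.1 to 76.9), against 34%, and replicate 2 gave 71 (91.0%, interval 82.4 to 96.3), against 53.1%. The lists differ in length, and the 9046 strongest regions of each replicate gave 47 genes in replicate 1 and 51 in replicate 2, against 21.8% and 21% of all genes. At that length 33 genes (42.3%) had a summit in both replicates, against 8.69%. With the full lists 48 genes (61.5%) did, against 23.6%.

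Where only summits nearest to the gene's own start were kept, 35 genes (44.9%) remained in the pooled list, against 18.4% of all genes. Replicate 1 kept 36 (46.2%), against 29.7%, and replicate 2 kept 60 (76.9%), against 47.7%. Translation factor genes, described below, stood at 51.2% and 62.8% in replicates 1 and 2 by this rule. Ribosome assembly genes stood at 34.8% and 69.6%, and mitochondrial ribosomal protein genes at 27.1% and 45.7%. The 6 ribosome genes named otherwise stood at 16.7% and 83.3%. The ribosomal protein genes had a divergent upstream neighbour in 54 cases (69.2%), against 46.2% of all genes, and the median gap to the upstream gene was 558.5 bp, against 938 bp. In 18 of the 49 genes the strongest pooled summit was nearer to another gene. Of the genes with any pooled summit, 35 of the 49 kept one nearest to their own start, against 3668 of 4285 over all genes. The part of this closer spacing in the counts was not tested.

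Both subunits were represented. Large-subunit genes had a called summit in 5 of 47 cases (10.6%, interval 3.55 to 23.1). Small-subunit genes had one in 1 of 31 (3.23%, interval 0.0816 to 16.7), and a difference between the subunits was not tested. In the pooled list the shares were 63.8% and 61.3%. Of the pooled regions' genes, 6 of 49 ribosomal protein genes had a called summit (12.2%), against 188 of 4285 of all genes (4.39%). The strongest pooled summit had a median rank of 1867 in the 49 genes and 4137 in the 4285. In replicate 1 the medians were 2958.5 and 6786.5, and in replicate 2 they were 3773 and 11943. By these medians the ribosomal protein genes stood higher in each list.

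The other genes of translation gave a point of comparison. The shares of all genes to set beside them were 0.941% in the called list and 21.5% in the pooled list. In replicates 1 and 2 they were 34% and 53.1%. Of 43 translation factor genes, iff-2, which encodes the initiation factor that relieves stalled ribosomes, was the 1 with a called summit (signal 58.6, rank 109, 86 bp upstream of its own start). That made 2.33% of the 43. In the pooled list 20 of the 43 had a summit (46.5%, interval 31.2 to 62.3), against 21.5% of all genes. Of 70 mitochondrial ribosomal protein genes, mrpl-12 and mrps-35 had a called summit, both nearer to another gene (Y39A1A.22 and sws-1), and 25 had a pooled summit (35.7%, interval 24.6 to 48.1). Of 23 genes of ribosome assembly, none had a called summit, which allows a share of up to 14.8% (upper exact bound), and 7 had a pooled one (30.4%, interval 13.2 to 52.9). Of 6 ribosome genes named otherwise (rla-0, rla-1, rla-2, ubl-1, ubq-2 and rack-1), none had a called summit (upper exact bound 45.9%) and 3 had a pooled one. The intervals of the cytosolic and mitochondrial genes were 2.88 to 16.0 and 0.348 to 9.94 in the called list. In replicate 1 they were 55.1 to 76.9 and 32.4 to 56.7, and in replicate 2 they were 82.4 to 96.3 and 46.2 to 70.2. The intervals of the cytosolic genes overlapped those of the translation factors in all 4 lists.

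**Figure D3:**
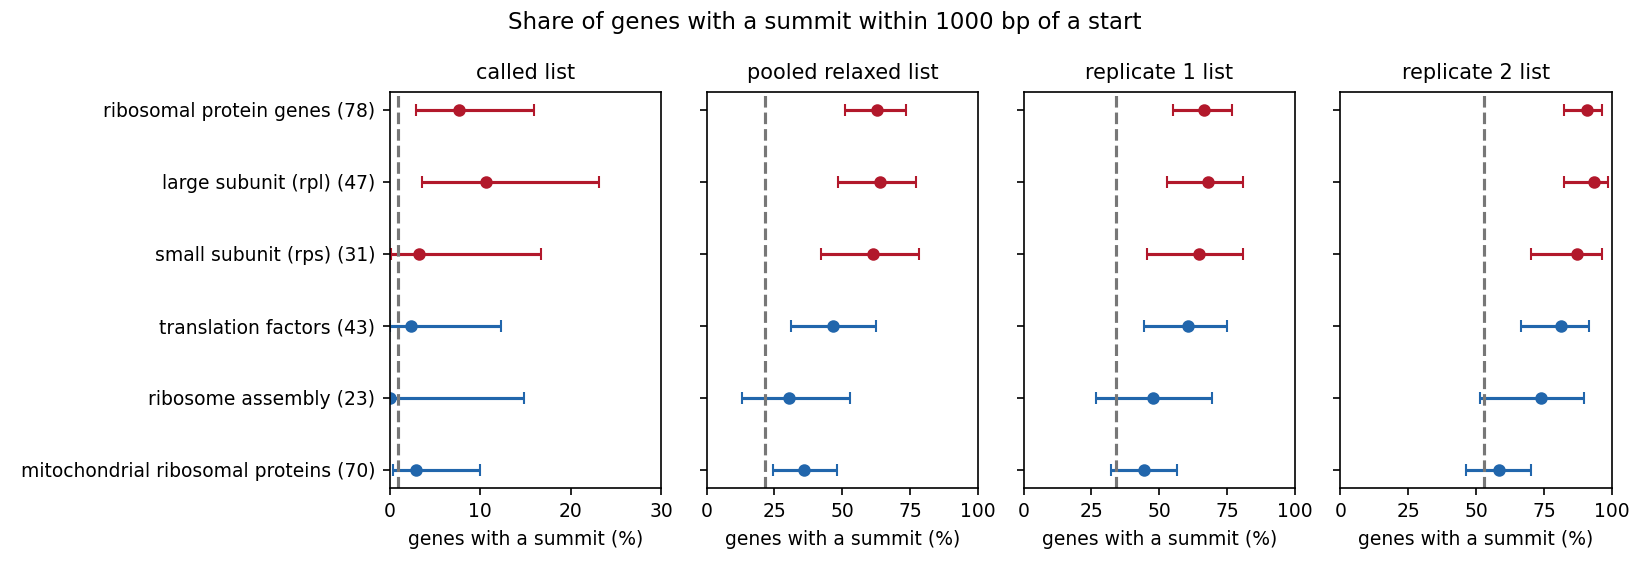
Share of genes with a summit within 1000 bp of an annotated start in each of the 4 lists, with 95% exact intervals as bars and the number of genes in brackets. Red points are ribosomal protein genes, blue points the other translation lists, and the dashed line is the share of all 19973 protein-coding genes (the first panel has its own scale up to 30%). The red points for all 78 genes lie right of the dashed line in each list, at 7.69, 62.8, 66.7 and 91.0%.

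The strongest summits lay most often 200 to 400 bp upstream, counting also those nearer to another gene. The strongest pooled summit lay upstream of the nearest start in 35 of 49 genes (71.4%), with a median offset of -241 bp, against 56.4% and -82 bp over all genes with a pooled summit. Between 200 and 400 bp upstream lay 17 of the 49 summits (34.7%), against 13.1% over all genes. Replicate 1 had 20 of 52 there (38.5% against 12.4%) and replicate 2 had 22 of 71 (31.0% against 10.6%). The median offsets were -295.5 bp in replicate 1 and -178 bp in replicate 2, with -88.5 and -0.5 bp over all genes. Both libraries thus had the same most frequent bin. These values include the 18 pooled summits that were nearer to another gene. With only summits nearest to the own start, the median pooled offset was -171 bp, outside that bin.

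The annotated start was close to the start codon in most of these genes, at a median of 8 bp against 15 bp over all genes. In 72 of 78 (92.3%) it was at most 50 bp away, against 70.8%. Measured from the start codon, the median pooled offset was -277 bp. The genes were also short, with a median length of 753.5 bp against 2027 bp, so that a summit within 1000 bp downstream is often past the end of the gene.

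**Figure D4:**
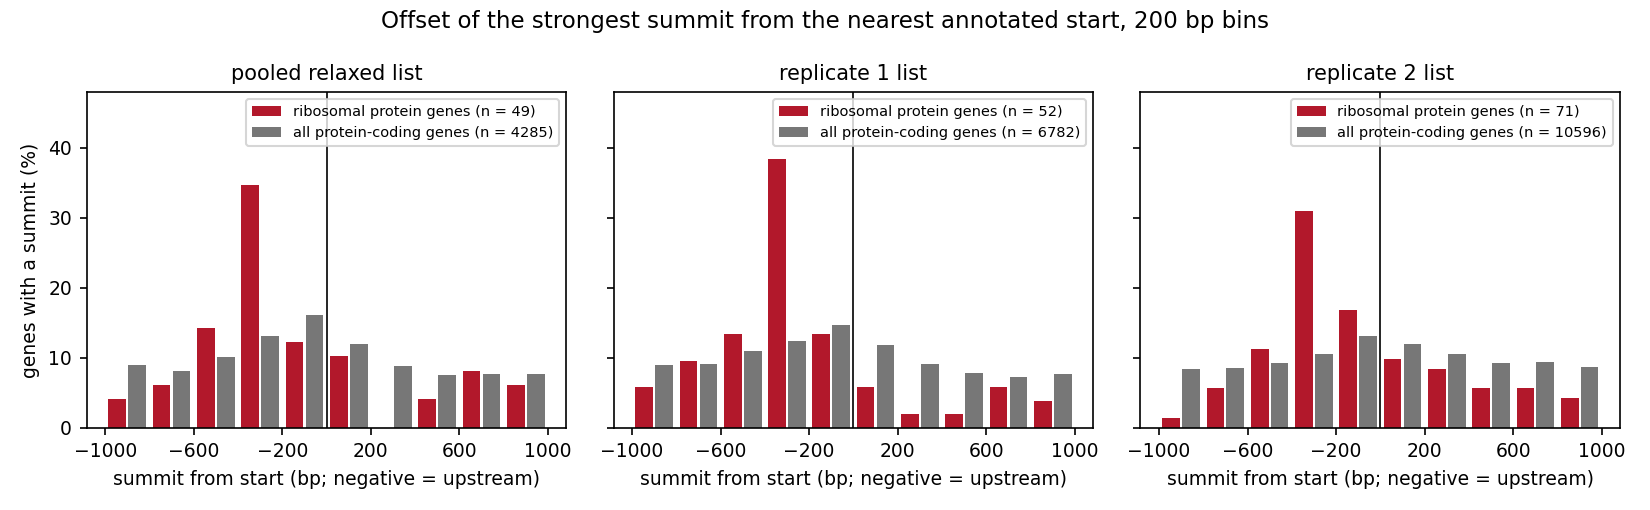
Distance of each gene's strongest summit from the nearest annotated start (x axis, bp, negative upstream), as the percentage of genes with a summit in 200 bp bins, for ribosomal protein genes (red) and all protein-coding genes (grey) in the pooled, replicate 1 and replicate 2 lists. The tallest red bar in each panel is that of 200 to 400 bp upstream, at 34.7, 38.5 and 31.0%.

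The replicates were compared at the strongest pooled region of each of the 49 genes, counted once per gene, with rpl-24.1 and rps-10 sharing a region. Of these, 34 were overlapped by a region in both libraries (69.4%). Counted per region and not per gene, this held for 58.9% of the 3632 regions that were strongest at any gene. Replicate 1 had a region at 39 of them and replicate 2 at 44, and each of the 49 had one in at least 1 library. Over the 34, the summits of the replicates were a median of 39.5 bp apart, and the ranks had a Spearman correlation of 0.302. This is a description, since these regions also formed the pooled list and some genes share a region. The 5 own called regions were in both libraries, with summit gaps from 6 to 40 bp.

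Summits near the snoRNA genes inside ribosomal protein genes were also looked up, with no share over all snoRNA genes given here to set beside them. There were 19 such snoRNA genes in 13 of the 78 genes, and 11 of these 13 had a pooled summit, against 38 of the other 65. Within 200 bp of a small RNA gene lay pooled summits of only rps-26, rpl-15 and rps-29. For rps-26, whose product lines the exit channel of the messenger RNA, the snoRNA gene F39B2.14 was 99 bp away in the neighbouring gene tmem-107, whose start was nearer still, at 38 bp. For rps-29 the summit was 3 bp from B0412.6 inside the gene, at rank 6565. In replicate 2, summits of rpl-26 and rps-12 lay 50 bp from F28C6.11 and on F54E7.11, at ranks 1383 and 2382. A replicate 2 summit of rpl-15 lay on K11H12.12 (rank 6361), and a replicate 1 summit of rps-29 lay on B0412.6 (rank 8630).

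At the other end, 3 genes (3.85%) had no summit in either replicate list, against 36.6% of all genes: rpl-38, rpl-42 and rps-5. Another 4 (5.13%) had one in replicate 1 alone (rpl-37, rps-14, rps-21 and rps-29), against 10.4% of all genes. In replicate 2 alone it was 23 (29.5%), close to the 29.4% of all genes. Near the distance limit, the farthest pooled summit counted was 908 bp upstream of rps-15, nearest to F36A2.9, and the first one left out was 1049 bp upstream of rps-0. Going out to 2000 bp added no gene to the 6 with a called summit, while the share of all genes rose from 0.941% to 1.46%. By chromosome, 23 of the genes lie on I, 10 on II, 18 on III, 17 on IV, 8 on V and 2 on X, where 2.56% of them lie against 13.7% of all genes.

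Sequences known from earlier results of these same data were searched on both strands within 100 bp on each side of the strongest pooled summits. This made 48 distinct windows. Because of that origin, the shares in called windows are not an independent yardstick. GAGACGCA was in 0 of 48, which allows a share of up to 7.40% (upper exact bound), against 10.9% of all called windows and 3.53% of all pooled windows. GAGAGAGA was in 2 (4.17%, against 12.7% and 4.90%), at rpl-41.1 and rpl-41.2. TGACACC was in 1 (2.08%, against 4.87% and 3.47%), at rpl-10. CAGCTG was in 4 (8.33%, against 8.99% and 5.46%), at rpl-22, rps-23, rpl-29 and rpl-19. None of them was in any of the 5 own called windows. Their shares in windows of the same length at all starts were 1.58%, 1.88%, 1.44% and 4.31%. The GC content of the 5 own called windows was 44.7% ± 2.32 (SD over 5 windows), against 47.2% ± 6.37 over all called windows.

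A search of the 500 bp upstream of the starts, made after the values were seen, found other short sequences shared by many of these genes, and they are given as descriptions with no test. Among the 30 sequences of 8 bases with the highest ratio of shares (those in at least 8 of the genes), GGCCTAAA and GCGAGACC were in the most genes. Read on both strands, each was upstream of 22 of 78 genes (28.2%), against 1.65% and 2.37% of all genes. CGAGTGT was upstream of 17 (21.8% against 2.63%) and TACGGTAA of 13 (16.7% against 2.03%), and both were picked from windows around summits. At least 1 of the 4 was upstream of 47 genes (60.3%), against 8.01% of all genes. All 4 were picked from these same genes, so these upstream shares restate that choice. The upstream GC content was 33.9% ± 3.32 in the 78 genes and 34.1% ± 4.75 over all genes (SD over genes). There were 3 pairs of ribosomal protein genes that share upstream sequence because they are transcribed away from each other.

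The median site was 249 bp upstream of the start for CGAGTGT, 280 bp for TACGGTAA, 220 bp for GGCCTAAA and 279.5 bp for GCGAGACC. CGAGTGT and TACGGTAA were picked from windows around these summits, so their shares there and their distances to the summits restate that choice. They are not compared with those of GGCCTAAA and GCGAGACC. The latter were picked upstream of these same genes, so their window shares are not free of that choice either. Within 100 bp of a pooled summit, CGAGTGT was in 11 of 48 windows (22.9%), against 1.65% of all pooled windows and 4.12% of called ones. TACGGTAA was in 8 (16.7%, against 0.796% and 1.12%), GGCCTAAA in 6 (12.5%, against 0.818% of pooled windows and 4 called windows in all) and GCGAGACC in 3 (6.25%, against 0.785% and 0.375%). A pooled summit was present at 12 of the 17 genes with CGAGTGT upstream, 8 of the 13 with TACGGTAA, 12 of the 22 with GGCCTAAA and 9 of the 22 with GCGAGACC, while 49 of all 78 had one. In replicate 1 the counts were 15 of 17, 11 of 13, 16 of 22 and 13 of 22, while 52 of all 78 had one. In replicate 2 they were 16 of 17, 13 of 13, 21 of 22 and 21 of 22, while 71 of all 78 had one. In the 5 own called windows at that distance, CGAGTGT was in 2, TACGGTAA in 1, GGCCTAAA in 3 and GCGAGACC in 0.

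In the rpl-3 sequence printed above, the centre of TACGGTAA was 9 bp after the summit and that of CGAGTGT was 47 bp after it. In rpl-15, CGAGTGT was 10 bp after it. The next windows are shown because they hold these sequences close to a summit that was not called. They are drawn as before, with GCGAGACC (or GGTCTCGC on the other strand) and CAGCTG also in capitals, at chrIV:4750017-4750137 (minus strand), chrIII:4475617-4475737 (plus), chrII:5055323-5055443 (plus), chrIV:12391197-12391317 (minus) and chrIV:13881905-13882025 (plus).
rpl-20: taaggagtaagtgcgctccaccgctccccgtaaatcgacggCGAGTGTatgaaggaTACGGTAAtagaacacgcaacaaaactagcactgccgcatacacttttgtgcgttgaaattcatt
rps-1: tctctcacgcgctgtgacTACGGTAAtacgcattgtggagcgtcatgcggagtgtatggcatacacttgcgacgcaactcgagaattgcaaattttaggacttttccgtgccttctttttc
rpl-22: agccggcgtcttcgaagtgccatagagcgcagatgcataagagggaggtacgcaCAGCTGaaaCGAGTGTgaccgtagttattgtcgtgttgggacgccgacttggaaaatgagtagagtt
rps-23: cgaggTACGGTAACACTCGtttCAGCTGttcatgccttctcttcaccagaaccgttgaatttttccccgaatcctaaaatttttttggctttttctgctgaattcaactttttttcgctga
rpl-29: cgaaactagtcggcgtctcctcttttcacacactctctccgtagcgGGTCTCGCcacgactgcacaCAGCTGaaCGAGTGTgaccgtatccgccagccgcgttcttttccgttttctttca

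In rpl-22 and rpl-29 a CAGCTG stood a few bases before CGAGTGT, with the summit between or beside them. In rps-23 the order was turned round, with TACGGTAA running into the reverse complement of CGAGTGT, with which it shares a base, and CAGCTG after it. Pooled ranks of these 5 regions ran from 295 to 780. A match is a description of the letters in a window, and which factor, if any, reads them was not tested.

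The deposited relaxed lists held 9046 pooled, 15880 replicate 1 and 30000 replicate 2 regions in ce11 coordinates. They give no read counts, so the depth of each library is unknown, and signals were compared only within a list.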

How the data were processed

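ChIP-seq peak lists of 2 replicate libraries were used. The signal values are the authors' deposited peak scores (column 7 of each list). Relaxed lists were made per replicate and for the pooled replicates as input for IDR, per the labels. For the aligner, peak caller, settings and depth: not given in the sources used here. Only the 4 ce11 lists were used, not the ce10 ones. Genes and starts came from Ensembl release 115 (WBcel235, of which ce11 is another name), with bases read from RefSeq's copy of WBcel235. No coordinates were converted.

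Summits were joined to every annotated start within 1000 bp, on the gene's strand, and the strongest summit per gene was kept. A summit was flagged where another protein-coding start was nearer or a tRNA, snoRNA or small nuclear RNA gene lay within 200 bp. Ranks run from the highest signal in each list. The join recovered 200 of 200 planted summits on simulated data. Shares carry 95% Clopper-Pearson intervals. With 1 group, no test was made. The genes, companion lists and the first 4 motifs were chosen with earlier results of these data known. Genes named were those with a called summit, with a summit of rank 1000 or better in both replicates, or among the 10 highest pooled signals. The neighbour nearer to the summit and other translation genes with a called summit were added, and further genes were picked once their values had been seen. Alternatives covered distance, side, start, list and window. Python 3.11.15, numpy 2.4.6, pandas 2.3.3 and scipy 1.17.1 were used.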

Additional observations from a re-analysis of the deposited data

How the results depend on the processing

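Over 64 alternatives, 56 left the value within 1.5 times, or within the spread between replicates for an offset. The count of genes with a called summit was 5 or 6 under the other distances, sides, starts and called lists. The shares of all genes under these settings ran from 0.511% to 1.46%. There was no called list for 1 library alone. In its place, the strongest regions of the remaining library's relaxed list were taken, up to the length of the called list. A summit among these was found at 7 genes without replicate 1 and 7 without replicate 2, against 0.906% and 0.916% of all genes. The count with the own start nearest was 5 in all of these, including the single-library counts without replicate 1 (5) and without replicate 2 (5). For that count the shares of all genes ran from 0.381% to 0.951%. Taking the 1000 strongest pooled peaks as the called list gave 17 and 10, against 3.2% and 2.48% of all genes. A rank limit equal to the length of the called list, in both replicates, gave 5 genes in place of 8. The shares of all genes were 0.451% and 1.14%. Windows of 50 bp on each side held GAGAGAGA in 1 and TGACACC in 0, and windows of 200 bp held GAGACGCA in 1. The pooled count ran from 35 to 59, replicate 1 from 36 to 63 and replicate 2 from 51 to 75. The shares of all genes moved as well. At these lowest and highest counts they were 18.4% and 33.5% for the pooled list and 29.7% and 51.3% for replicate 1. For replicate 2 they were 21.0% and 73.5%. The median offset ran from -277 bp, measured from the start codon, to -171 bp, with only summits nearest to the own start. Alternatives chosen after seeing the data were lists of equal length, own-nearest summits, the start codon and other upstream lengths. With 300 bp upstream, CGAGTGT was at 9 genes and GCGAGACC at 13, against 1.52% and 1.59% of all genes. Depth is unknown, so a gene without a summit was not shown to lack signal. No paired analysis was possible because there was 1 group.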
